A study of Mus musculus with 12 samples.

Results

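The genes described here are 38 named parts and products of NF-kB signalling, the pathway through which macrophages answer microbes and inflammatory cytokines. They were chosen by name: 25 pathway parts, made up of the NF-kB subunits, the IkB family, the kinases and the receptor adaptors, and 13 target and feedback genes. A gene was read only where a transcript cluster (the probes that an array sums for 1 transcript unit) carried that gene's symbol and no other, which held for 34 of the 38 members, 1 cluster each, among 22180 genes with such a cluster. The subunit Nfkb1, the kinase Chuk, the adaptor kinase Irak4 and the adaptor Traf3 had no cluster of that kind in the annotation used and were not analysed here. All 21 remaining pathway parts and 11 of the 13 target and feedback genes had a mean level over the arrays above log2 2.01, the limit for testing, so 32 members were among the 14611 genes tested. The cytokine genes Il6 and Il1a were below it.

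The arrays hold total RNA of RAW 264.7, an adherent mouse monocyte and macrophage line transformed by the Abelson murine leukaemia virus, so all replicates came from 1 line. Every culture was transfected, and RNA was taken 48 h later. The 3 groups, of 4 arrays each, received an irrelevant scrambled control oligonucleotide (Scramble), Pre-miR-223, an agent that supplies miR-223, or Anti-miR-223, an inhibitor of it. The cultures were not described as stimulated, and no untransfected group was used here. The deposited values are normalised log2 signals, so a log2 difference of 1 is a doubling of signal. No single-symbol cluster for Mir223 itself was in the annotation, so its level could not be read and the delivery of either agent was not checked. Of 10 macrophage markers all were tested and lay between 5.86 and 11.2, while fibroblast, epithelial, lymphoid and neutrophil markers lay at or below 3.52. These are extracts of whole cultures, so fewer cells of a kind and less RNA per cell cannot be told apart. Anti-miR-223 replicate 4 stood apart: its median correlation with the other arrays was 0.967, against 0.988 to 0.992 for the other 11 arrays, so results on the Anti-miR-223 group are given with and without it.

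In resting cells NF-kB dimers, built from the subunits encoded by Rela, Rel, Relb, Nfkb1 and Nfkb2, are held in the cytoplasm by IkB proteins. Toll-like and interleukin-1 receptors signal through Myd88, Irak kinases and Traf6 to the IKK complex, which marks IkB for destruction and frees the dimers to enter the nucleus. The dimers then switch on inflammatory genes such as Tnf, and also Nfkbia, Tnfaip3 and Zc3h12a, whose products shut the response down again. miR-223 is a microRNA of the myeloid lineage, and Chuk, which encodes a catalytic IKK subunit, is a reported target of it.

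The mature forms of the transfected microRNA are shown because they define the treatment, with the seed, bases 2 to 8, in capitals. They come from RefSeq on GRCm38.p6. The labels do not say which arm Pre-miR-223 supplies, and the seeds of the arms differ.
mmu-miR-223-3p (chrX:96242884-96242905, plus strand): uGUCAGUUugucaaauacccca
mmu-miR-223-5p (chrX:96242842-96242864, plus strand): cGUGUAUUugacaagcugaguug

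The DNA element that NF-kB binds, the kB site, is shown for some of the members whose promoter holds a match to it. Among these is Il6, which was not tested. RefSeq promoter windows of 300 bases, 250 before to 50 after a gene's start, were searched on both strands for the kB consensus, where overlapping matches were counted together. Of the 34 members with a window in that table, 12 held a match (35.3%), against 5.14% of the 27025 genes in it. Nfkb1, Nfkbiz, Relb and Ikbkb had no entry. The matches were in 7 of 21 pathway parts (Bcl3, Map3k7, Nfkb2, Nfkbia, Nfkbie, Rel and Traf3) and in 5 of 13 target and feedback genes (Cyld, Il6, Sod2, Tnfaip3 and Tnip1). A match of letters is a description and not a measured binding site. A gene with several starts was counted once. Each stretch below is written on the gene's own strand with the match in capitals. Nfkb2 held further matches, which are not printed.
Nfkb2 (chr19:46304678-46304728, plus strand): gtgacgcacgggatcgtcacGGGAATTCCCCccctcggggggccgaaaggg
Nfkbia (chr12:55492647-55492696, minus strand): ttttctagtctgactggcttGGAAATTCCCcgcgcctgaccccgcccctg
Nfkbie (chr17:45555574-45555623, plus strand): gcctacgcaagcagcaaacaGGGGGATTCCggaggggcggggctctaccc
Sod2 (chr17:13007736-13007785, plus strand): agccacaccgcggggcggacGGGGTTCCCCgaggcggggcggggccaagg
Tnip1 (chr11:54962967-54963018, minus strand): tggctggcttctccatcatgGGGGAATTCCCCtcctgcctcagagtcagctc
Il6 (chr5:30013050-30013099, plus strand): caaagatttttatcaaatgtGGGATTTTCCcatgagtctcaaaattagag
The matches began 39, 29, 106, 83, 58 and 44 bases before the gene's start in this order. The matches in Nfkbie and Il6 read on the gene's strand, that in Nfkbia on the other strand, and those in Nfkb2, Sod2 and Tnip1 on both, with those in Nfkb2 and Tnip1 longer than 10 letters because shifted matches overlap.

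The first comparison asked how the pathway differed between cells given Pre-miR-223 and cells given the scramble. Of the 32 tested members 28 were lower with Pre-miR-223, with a median difference of -0.16, against 65.2% of all genes tested and a median of -0.05. The differences ran from -0.35 (Il1rn) to 0.20 (Map3k14), and none passed limma's test after Benjamini-Hochberg adjustment, where the lowest adjusted p of any gene was 0.9205 and 0% of genes were called. Over all genes, 711 (4.87%) had an unadjusted p under 0.05. At an unadjusted p under 0.05 there were 3 members, Nfkb2, Zc3h12a and Sod2, all lower (9.38% of members), against 3.85% of all genes tested that were lower at that level. The 4 Scramble and 4 Pre-miR-223 arrays did not overlap for Nfkbie and Zc3h12a, 6.25% of members, against 2.20% of all genes that were lower without overlap. The direction depended in part on scaling. After each array was centred on the median of its tested genes, 21 members were lower, beside 43.0% of all genes. After a repeated quantile normalisation 23 were lower, beside 60.6%, and after cyclic loess 21, beside 52.1%. The members' median was then -0.08, -0.10 and -0.06, beside 0.03, -0.03 and -0.01 for all genes. At an unadjusted p under 0.05 centring left no lower member, beside 1.79% of all genes lower at that level, and 1 higher, Map3k14. Quantile normalisation left 2 lower, Nfkbie and Zc3h12a, beside 3.61% of all genes, and cyclic loess left none, beside 2.57%.

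Differences with Pre-miR-223 were in general more negative in brighter genes. Among genes with a mean above log2 5 the median was -0.11 over all 4919 tested and -0.17 over 18 members, and among dimmer genes it was -0.03 over all 9692 and -0.14 over 14 members. Pathway parts had a median of -0.12 (18 of 21 lower), and target and feedback genes had -0.23 (10 of 11 lower). By role the medians were -0.17 for the subunits, -0.17 for the IkB family, -0.04 for the kinases and -0.10 for the adaptors. They were -0.29 for the cytokines (Tnf and Il1rn), -0.20 for feedback genes and -0.23 for other targets. The members within 0.05 of the scramble mean were Ikbkb, Ikbkg, Tbk1, Tirap, Irak3, Traf6, Cyld and Tnfaip2.

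**Figure D1:**
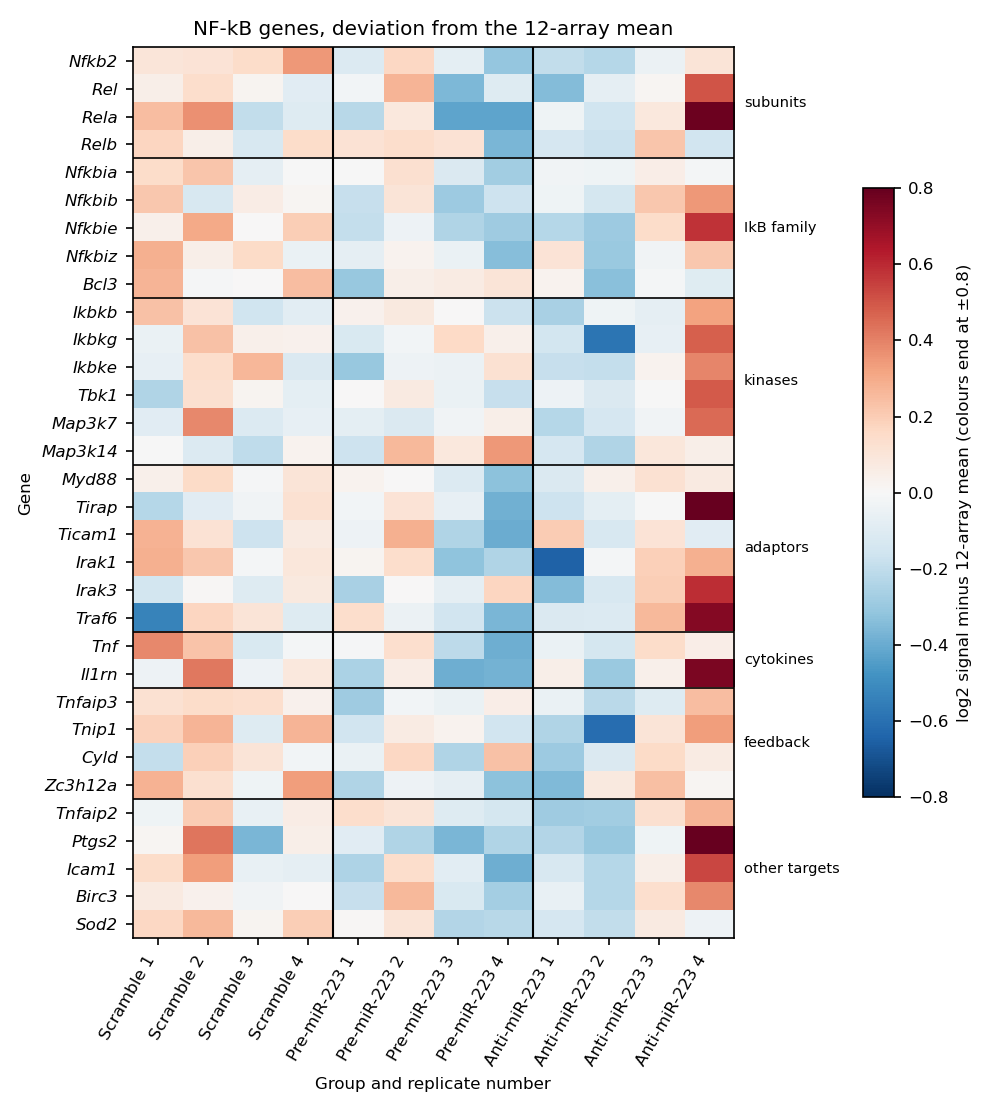
Each cell gives 1 gene on 1 array as its log2 signal minus that gene's mean over the 12 arrays, with rows grouped by role and colours ending at 0.8 either way. Anti-miR-223 replicate 4, the rightmost column, is the highest array for 19 of the 32 genes, and Pre-miR-223 replicate 4 is the lowest for 10.

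Among the subunits, Nfkb2 encodes p100, the precursor of the p52 subunit of the non-canonical pathway. It had log2 signals of 5.94, 5.94, 5.99 and 6.18 on the Scramble arrays and 5.73, 6.00, 5.76 and 5.53 with Pre-miR-223. All Pre-miR-223 arrays but replicate 2 lay below every Scramble array. The difference was -0.26 (95% interval -0.51 to -0.00207), a fold of 0.836, at an unadjusted p of 0.0484. Rela encodes p65, the main transactivating subunit, and had 7.46, 7.58, 7.02 and 7.12 with the scramble and 6.997, 7.31, 6.80 and 6.80 with Pre-miR-223. These groups overlapped, as Scramble replicates 3 and 4 lay below Pre-miR-223 replicate 2, and the difference was -0.32 (-0.75 to 0.10). Rel, the c-Rel gene of lymphoid and myeloid cells, and Relb, which pairs with p52, lay within 0.1 of the scramble mean in this comparison.

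The IkB family holds NF-kB back or, for Bcl3 and Nfkbiz, works with it in the nucleus. Nfkbie encodes IkB-epsilon and had 5.05, 5.30, 5.01 and 5.20 with the scramble against 4.82, 4.97, 4.76 and 4.72 with Pre-miR-223. Every Pre-miR-223 array was thus below every Scramble array. The difference was -0.32 (-0.67 to 0.03, fold 0.799, unadjusted p = 0.0688), with an error shared by all 3 groups. Without Anti-miR-223 replicate 4 the same difference was among 6 members at an unadjusted p under 0.05, all lower, beside 7.64% of all genes lower and 9.38% in either direction at that level, still with 0 calls. The other members of the 6 were Nfkb2, Rela, Il1rn, Zc3h12a and Sod2.

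Nfkbia, which encodes the rapidly resynthesised inhibitor IkB-alpha, had 8.39, 8.46, 8.17 and 8.24 with the scramble and 8.24, 8.37, 8.12 and 7.96 with Pre-miR-223. The groups overlapped, and the difference was -0.14 (-0.37 to 0.09). It had one of the smallest spreads within groups, an SD of 0.13, so a fall of 1.5-fold lay outside its interval. Nfkbiz differed by -0.22 (-0.49 to 0.06), Nfkbib, the gene of IkB-beta, by -0.17, and Bcl3 by -0.15. All 5 members of the family tested were lower, none past the threshold.

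The kinases had the median nearest to 0. Ikbkb encodes IKK-beta, the kinase that phosphorylates IkB, and had 5.74, 5.61, 5.35 and 5.42 with the scramble and 5.54, 5.58, 5.51 and 5.34 with Pre-miR-223. The arrays of these groups interleaved, with a difference of -0.04 (-0.32 to 0.24) that turned to between 0.03 and 0.06 under the 3 other scalings. Map3k14, which encodes NIK, the kinase that sets p100 processing going, was the one member with a sizeable difference upward, 0.20 (-0.06 to 0.47). Its signals were 3.22, 3.11, 3.01 and 3.25 with the scramble and 3.05, 3.48, 3.30 and 3.56 with Pre-miR-223, so replicate 1 lay among the Scramble arrays and the other 3 above them. Ikbkg (NEMO, the regulatory IKK subunit), Ikbke and Tbk1 (the IKK-related kinases) and Map3k7 (TAK1) differed by -0.12 to 0.00.

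Of the adaptors, Traf6, the ubiquitin ligase between Irak kinases and TAK1, had 3.75, 4.45, 4.38 and 4.18 with the scramble and 4.42, 4.23, 4.13 and 3.92 with Pre-miR-223. The difference was -0.02 (-0.44 to 0.41), and it turned to between 0.03 and 0.07 under the other scalings. Irak1 differed by -0.24 (-0.63 to 0.14), and Myd88 and Ticam1, the adaptors of the main Toll-like receptor routes, by -0.17 each. Without Pre-miR-223 replicate 4 Myd88 differed by -0.10 and Ticam1 by -0.07. Tirap, which bridges receptors to Myd88, and Irak3, an inhibitory Irak protein, lay within 0.05 of the scramble mean.

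Tnf, the gene of the main macrophage inflammatory cytokine, had 9.03, 8.87, 8.52 and 8.63 with the scramble and 8.63, 8.78, 8.44 and 8.25 with Pre-miR-223. Scramble replicates 1 and 2 lay above all Pre-miR-223 arrays and the other 2 among them. The difference was -0.24 (-0.54 to 0.06, fold 0.849). Il1rn encodes the secreted antagonist of the interleukin-1 receptor, and its signals were 3.65, 4.12, 3.65 and 3.78 with the scramble and 3.44, 3.75, 3.30 and 3.32 with Pre-miR-223. Only Pre-miR-223 replicate 2 reached the Scramble range, and the difference was -0.35 (-0.76 to 0.07). Il6 was between 1.18 and 1.44 on every array and Il1a between 1.51 and 2.29, both with group means under the limit for testing, so neither cytokine was tested.

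Zc3h12a had the smallest p of any member in this comparison. It encodes regnase-1, a ribonuclease that cuts cytokine mRNAs, and had 4.78, 4.63, 4.47 and 4.85 with the scramble and 4.27, 4.47, 4.44 and 4.18 with Pre-miR-223. The groups did not overlap, although Scramble replicate 3 and Pre-miR-223 replicate 2 were nearly equal. The difference was -0.35 (-0.63 to -0.06), a fold of 0.787, at an unadjusted p of 0.0213. Tnfaip3 encodes the ubiquitin-editing enzyme A20 and had 4.07, 4.10, 4.08 and 3.98 with the scramble and 3.66, 3.93, 3.89 and 4.001 with Pre-miR-223. Pre-miR-223 replicate 4 lay above Scramble replicate 4, and the difference was -0.19 (-0.43 to 0.06). Tnip1, which encodes a partner of A20, differed by -0.21 (-0.58 to 0.16), and Cyld, a deubiquitinase of the pathway, lay within 0.05 of the scramble mean.

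Sod2, the gene of the mitochondrial superoxide dismutase and a well-known NF-kB target, had 8.41, 8.50, 8.26 and 8.44 with the scramble and 8.25, 8.35, 8.01 and 8.02 with Pre-miR-223. Only Pre-miR-223 replicate 2 lay above the lowest Scramble array. The difference was -0.25 (-0.48 to -0.01), a fold of 0.844, at an unadjusted p of 0.0409. Ptgs2, which encodes the inducible cyclooxygenase COX-2, differed by -0.26 (-0.90 to 0.37), Icam1, a leukocyte adhesion molecule, by -0.23 (-0.60 to 0.13), and Birc3, an inhibitor of apoptosis, by -0.10. Tnfaip2, a TNF-induced gene, lay within 0.05 of the scramble mean.

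**Figure D2:**
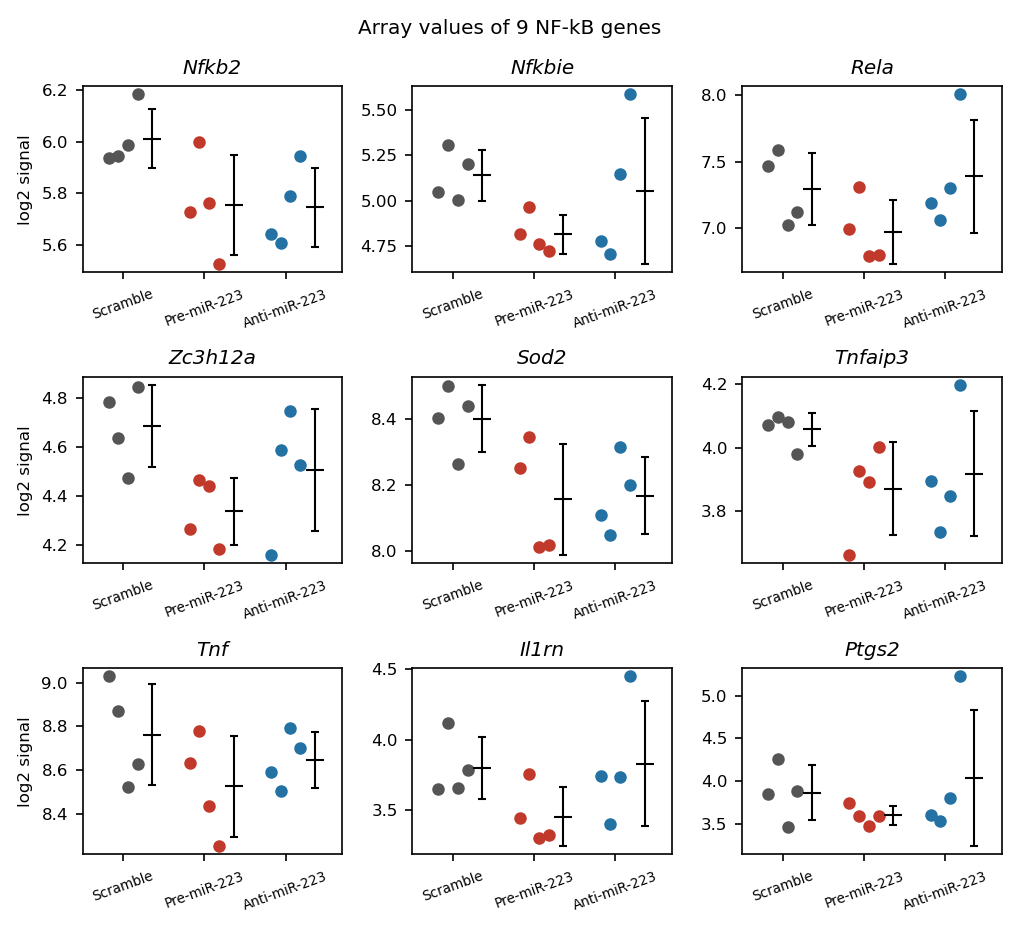
Each dot is the log2 signal of 1 array for 9 of the genes, and the bar beside a group gives its mean and SD over 4 arrays. The vertical axes differ between panels and do not start at 0. Zc3h12a and Nfkbie show no overlap between Scramble and Pre-miR-223, and the highest Anti-miR-223 dot of Rela, Il1rn and Ptgs2 is replicate 4.

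The counts at an unadjusted p under 0.05 moved with single arrays. So did the share of all genes lower at that level, given in brackets, which was 3.85% with all arrays. There were 0 such members without Scramble replicate 1 (2.46%) or 4 (3.66%) or Pre-miR-223 replicate 4 (1.53%). There was 1 without Scramble replicate 2 (2.07%) or Pre-miR-223 replicate 3 (2.43%). Leaving out Pre-miR-223 replicate 1 gave 1 lower member (2.55%) and 1 higher, Map3k14, and leaving out its replicate 2 gave 6 lower ones (8.56%). A fall of at least 1.5-fold lay outside the interval of 25 of 32 members (85.7% of all genes tested), and a rise of that size outside that of all 32 (96.2% of all genes tested). The intervals reached from 0.22 to 0.64 to either side of a member's difference, with a median of 0.30.

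The second comparison asked the same of cells given Anti-miR-223. With all arrays 22 of 32 members were lower than with the scramble, with a median of -0.05, beside 52.5% of all genes tested and a median of -0.01. No gene was called (0%, lowest adjusted p of any gene by limma 0.988), and 294 genes had an unadjusted p under 0.05 (2.01%). Nfkb2 and Sod2 were the members at that level, both lower, 6.25% of members against 1.35% of all genes. Neither was at that level when Scramble replicate 4, Anti-miR-223 replicate 1 or 2, or Pre-miR-223 replicate 1 or 3 was left out, nor with a trended and robust variance model, and 1 of them was when Scramble replicate 1, 2 or 3 or Anti-miR-223 replicate 3 was. In these settings between 0.944% and 1.96% of all genes were lower at that level. For none of the 32 tested members did the Scramble and Anti-miR-223 arrays separate fully, against 1.55% of all genes tested. Il6 and Il1a, below the limit for testing, are not counted here. In their faint signals every Anti-miR-223 array lay below every Scramble and every Pre-miR-223 array. For Il6 the highest Anti-miR-223 value was 1.24 and the lowest Scramble value 1.26. How often equally faint genes separate was not counted, so no result is drawn from this. Without Anti-miR-223 replicate 4, 31 of 32 members were lower, with a median of -0.16, beside 63.6% of all genes and a median of -0.05. No gene was called then either, with a lowest adjusted p by limma of 0.194 for any gene and 0.712 for a member, and 978 genes (6.69%) had an unadjusted p under 0.05. The count of lower members also moved with other arrays of this group, as did the share of all genes. Without Anti-miR-223 replicate 1 there were 13 lower members, with a median of 0.01, beside 46.4% and 0.01 for all genes. Leaving out Anti-miR-223 replicate 2 gave 15, also at 0.01, beside 47.2% and 0.01. This comparison and the first share their Scramble arrays, so their values stand side by side and are not independent of each other.

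**Figure D3:**
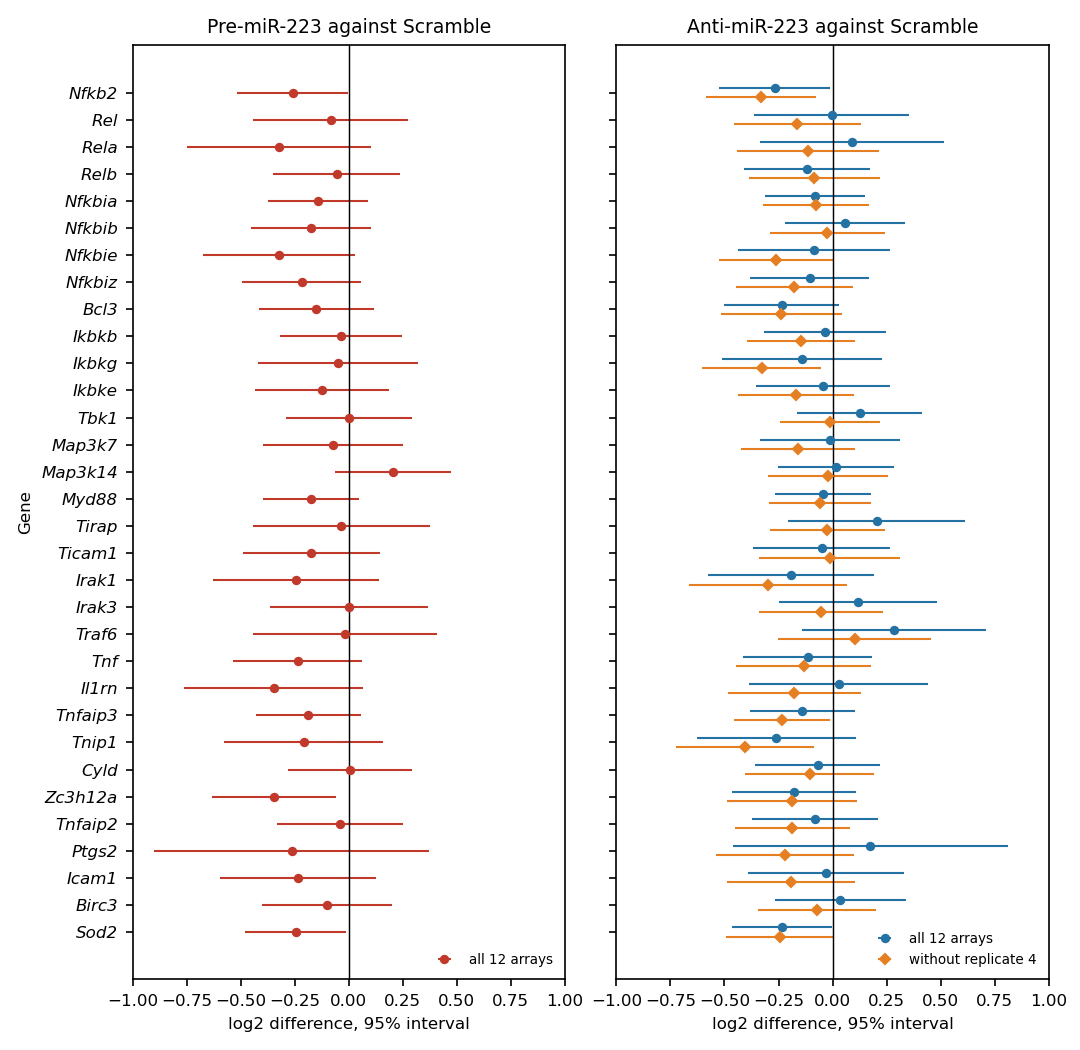
Points give the log2 difference of each tested gene from the scramble with its 95% interval, for Pre-miR-223 on the left and Anti-miR-223 on the right, where diamonds leave out Anti-miR-223 replicate 4. The left panel has 28 of 32 points below 0, and on the right 22 circles and 31 diamonds are below 0, with Traf6 the one diamond above it.

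Nfkb2 had 5.64, 5.61, 5.79 and 5.94 with Anti-miR-223, so that only replicate 4 reached the lowest Scramble arrays. The difference was -0.27 (-0.52 to -0.01, fold 0.831), and -0.33 (-0.59 to -0.08) without replicate 4. The direct difference of Nfkb2 between Pre-miR-223 and Anti-miR-223 was 0.01 (-0.25 to 0.26). Sod2 had 8.11, 8.05, 8.32 and 8.20, with replicate 3 inside the Scramble range. Its difference was -0.23 (-0.47 to -0.000296), and -0.24 (-0.49 to 0.00314) without replicate 4.

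Bcl3, an unusual IkB protein that can activate transcription with p52, had 4.87, 4.59, 4.60 and 4.84 with the scramble and 4.62, 4.26, 4.58 and 4.50 with Anti-miR-223. Replicate 1 alone reached into the Scramble range, and the difference was -0.23 (-0.50 to 0.03). Nfkbie had 4.78, 4.71, 5.15 and 5.58, from below to above all Scramble arrays, and its difference of -0.09 became -0.26 (-0.52 to 0.00215) without replicate 4. Nfkbia had 8.21, 8.21, 8.29 and 8.22, all inside the Scramble range, with a difference of -0.08 (-0.31 to 0.15). Nfkbiz differed by -0.11.

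The sign of several members' differences turned when Anti-miR-223 replicate 4 was left out. Nfkbib, Tbk1, Map3k14, Irak3 and Birc3 turned negative, as did the genes described next. Rela had 7.19, 7.06, 7.30 and 8.002, and the difference was 0.09 (-0.34 to 0.52) with replicate 4 and -0.11 (-0.44 to 0.21) without it. Il1rn had 3.74, 3.40, 3.73 and 4.45, and the difference moved from 0.03 to -0.18. Ptgs2, the most variable member with a within-group SD of 0.50, at the 97.9th percentile of all genes tested, had 3.85, 4.27, 3.47 and 3.88 with the scramble. With Anti-miR-223 it had 3.60, 3.53, 3.80 and 5.23, and the difference moved from 0.17 to -0.22. Tirap had 4.42, 4.51, 4.58 and 5.42 and moved from 0.21 to -0.02. In Rela, Il1rn, Ptgs2 and Tirap replicate 4 lay above every other array of the series. With 1 array left out at a time, 2 arrays turned the sign of Rela and 3 that of Il1rn, replicate 4 among them. For Ptgs2 and Tirap replicate 4 alone did so.

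Ikbkg had 3.07, 3.35, 3.16 and 3.16 with the scramble and 2.98, 2.54, 3.06 and 3.60 with Anti-miR-223, which spanned the whole Scramble range. The difference was -0.14 (-0.51 to 0.23) with all arrays and -0.33 (-0.60 to -0.05) without replicate 4, when the groups no longer overlapped. Ikbkb had 5.25, 5.47, 5.43 and 5.83, with a difference of -0.03 (-0.32 to 0.25). Traf6 had 4.17, 4.17, 4.54 and 5.02, and it was higher with and without replicate 4, by 0.28 (-0.14 to 0.71) and 0.10 (-0.25 to 0.46). Irak1 differed by -0.19 (-0.58 to 0.19), with replicate 1 the lowest of the 12 arrays at 5.41.

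Of the cytokine genes, Tnf had 8.59, 8.50, 8.79 and 8.70 with Anti-miR-223, with a difference of -0.12 (-0.41 to 0.18). The feedback genes were all lower with all arrays, with a median of -0.16. Tnip1 had 5.44, 5.53, 5.16 and 5.53 with the scramble and 5.02, 4.65, 5.36 and 5.59 with Anti-miR-223, and differed by -0.26 (-0.63 to 0.11), or -0.41 (-0.72 to -0.09) without replicate 4. Tnfaip3 had 3.89, 3.73, 3.85 and 4.20, and differed by -0.14 (-0.38 to 0.10), or -0.23 (-0.45 to -0.01) without replicate 4, when all Anti-miR-223 arrays lay below the Scramble arrays. Zc3h12a had 4.16, 4.58, 4.75 and 4.53, from below to inside the Scramble range, and differed by -0.18 (-0.47 to 0.11).

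Without replicate 4 there were thus 4 members at an unadjusted p under 0.05, Nfkb2, Ikbkg, Tnfaip3 and Tnip1, 12.5% of members against 4.89% of all genes lower at that level. Among the 32 tested members Nfkb2, Ikbkg and Tnfaip3 lay below the scramble without overlap, 9.38% against 4.53% of all genes tested. With all arrays a fall of at least 1.5-fold lay outside the interval of 31 of 32 members, Tnip1 being the exception, beside 94.0% of all genes tested.

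The third comparison set Pre-miR-223 directly against Anti-miR-223, the groups in which miR-223 was meant to be raised and blocked. With all arrays 24 of 32 members were lower with Pre-miR-223, with a median of -0.10, beside 62.8% and -0.04 for all genes tested. No member was called (0% of genes, lowest adjusted p by limma 0.946), and no member reached an unadjusted p under 0.05, against 528 genes in all (3.61%). Without Anti-miR-223 replicate 4, 16 of 32 members were lower, with a median of 0.01, beside 52.2% and -0.01 for all genes, and 714 genes (4.89%) had an unadjusted p under 0.05 with 0 calls. Scaling also moved this comparison. After centring 18 members were lower, after quantile normalisation 21 and after cyclic loess 17, beside 41%, 57.6% and 53% of all genes. The members' medians were -0.02, -0.05 and -0.02, beside 0.03, -0.03 and -0.01 for all genes. At an unadjusted p under 0.05 Rela was the single member, lower, under each of these scalings. Beside it, 1.38%, 3.06% and 2.53% of all genes were lower at that level. There were 4 such members without Anti-miR-223 replicate 2 (Rela, Nfkbib, Nfkbie and Il1rn), beside 5.32% of all genes lower at that level. There were 3 without Pre-miR-223 replicate 2 (Rela, Nfkbib and Il1rn), beside 6.17%, and 2 without Anti-miR-223 replicate 1 (Rela and Zc3h12a), beside 4.15%. All of these members were lower. Without Pre-miR-223 replicate 1 Map3k14 was the only member at that level, and it was higher. Beside it, 1.68% of all genes were lower at that level, and the share that was higher was not counted. Without Anti-miR-223 replicate 4 the interval of every member excluded a 1.5-fold difference either way, beside 91.8% of all genes tested.

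The 3 pathway parts and the 3 target or feedback genes with the smallest p here were Rela at -0.41 (-0.84 to 0.01), Nfkbib at -0.23 (-0.51 to 0.05) and Map3k14 at 0.19 (-0.08 to 0.46), and Il1rn at -0.38 (-0.79 to 0.04), Ptgs2 at -0.44 (-1.07 to 0.20) and Zc3h12a at -0.17 (-0.45 to 0.12). Without Anti-miR-223 replicate 4 Rela differed by -0.21, Il1rn by -0.17, Nfkbib by -0.15 and Ptgs2 by -0.04. Nfkbie differed by -0.24 with all arrays and by -0.06 without that array, Traf6 by -0.30 and -0.12, and Tnf by -0.12 and -0.10. Ikbkg went from 0.09 to 0.28 (0.00222 to 0.55) and was then the only member at an unadjusted p under 0.05, 3.12% of members beside 2.07% of all genes that were higher at that level. Nfkbia differed by -0.06, Ikbkb by -0.00254 and Tnfaip3 by -0.05 with all arrays, and each turned positive under at least 1 other scaling.

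Inside the groups the members were high or low together on single arrays. The members' median deviation from their 12-array means was 0.09, 0.15, -0.03 and 0.03 on the Scramble arrays, -0.09, 0.08, -0.09 and -0.24 with Pre-miR-223, and -0.14, -0.17, 0.08 and 0.33 with Anti-miR-223. The group means were 0.06 ± 0.08, -0.08 ± 0.13 and 0.03 ± 0.23 (SD, n = 4), so the groups lay closer together than the arrays of the Anti-miR-223 group did. The same median over all genes tested ran from -0.08 on Pre-miR-223 replicate 4 to 0.08 on Anti-miR-223 replicate 4. The median signal over all clusters was at its extremes on the same arrays, in the opposite direction. It was highest on Pre-miR-223 replicate 4 (2.31) and lowest on Anti-miR-223 replicate 4 (2.21). The part of array scaling in the members' deviations was not tested. Anti-miR-223 replicate 4 was the highest array for 19 of 32 members, beside 34.1% of all genes tested, and Pre-miR-223 replicate 4 was the lowest for 10, beside 19.1%. What set these arrays apart was not tested.

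**Figure D4:**
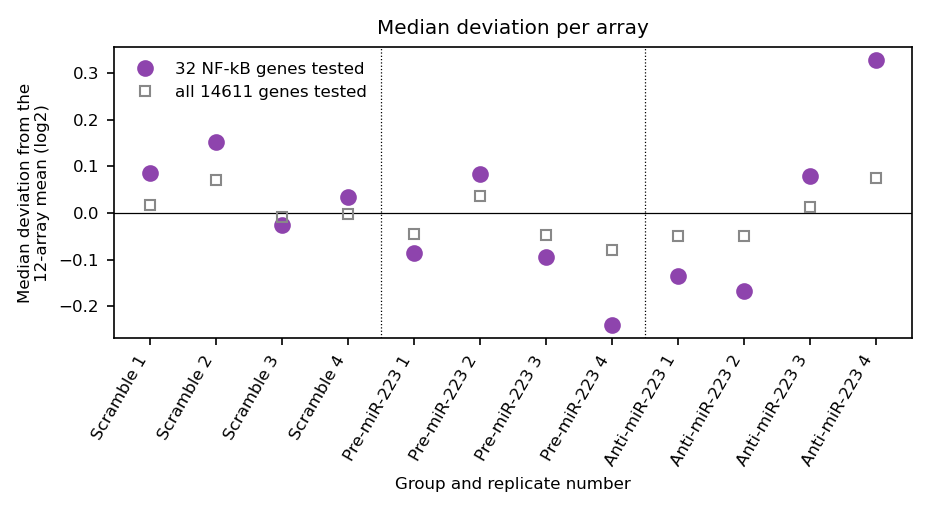
Filled circles give, for each of the 12 arrays, the median log2 deviation of the 32 tested NF-kB genes from their own 12-array means, and open squares give the same over all 14611 genes tested. The circles range from -0.24 on Pre-miR-223 replicate 4 to 0.33 on Anti-miR-223 replicate 4, and the squares from -0.08 to 0.08 on the same arrays.

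Macrophage markers were read in the same way. With Pre-miR-223 9 of 10 were lower, with a median of -0.18, beside 65.2% and -0.05 for all genes tested. All 10 lay above log2 5, where 78.5% of genes tested were lower, with a median of -0.11. With Anti-miR-223 4 of 10 were lower, with a median of 0.02, beside 52.5% and -0.01, or 60.1% and -0.03 above log2 5. Without replicate 4 these were 9 of 10 and -0.14, beside 63.6% and -0.05, or 80.6% and -0.11 above log2 5. Their log2 signals summed to 83.0 to 85.8 on the Scramble arrays, 81.1 to 84.6 with Pre-miR-223 and 81.7 to 88.8 with Anti-miR-223. Their part in the differences of the NF-kB genes was not tested.

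Members with and without a kB match in the promoter window were set side by side. With Pre-miR-223 the 10 tested members with a match had a median difference of -0.17 (9 lower) and the 19 tested members with a window but no match had -0.17 (16 lower). With Anti-miR-223 the medians were -0.11 (10 of 10 lower) and 0.01 (9 of 19 lower), and without replicate 4 they were -0.23 (10 lower) and -0.11 (18 lower). Over all genes tested 65.2% were lower with Pre-miR-223, and 52.5% with Anti-miR-223, or 63.6% without replicate 4. The difference between these sets was not tested.

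Other genes of the pathway, 35 listed by role as receptors, adaptors, ubiquitin ligases and kinases, included 33 that were tested. With Pre-miR-223 26 of the 33 were lower, with a median of -0.07, beside 65.2% and -0.05 for all genes tested. At an unadjusted p under 0.05 there were 3, all lower and none called, beside 3.85% of all genes lower at that level. The smallest p values were those of Rbck1, a subunit of the linear ubiquitin ligase (-0.29, -0.54 to -0.04), and Nfkbid, a nuclear IkB protein (-0.36, -0.72 to -0.01). With Anti-miR-223 20 of 33 were lower, with a median of -0.02, beside 52.5% and -0.01 for all genes. Without replicate 4 the count was 26 of 33, with a median of -0.12, beside 63.6% and -0.05. Nfkbid differed by -0.33 with all arrays and by -0.49 (-0.78 to -0.20) without replicate 4, and Sigirr, an inhibitory receptor, by 0.24 and 0.36 (0.11 to 0.61). In the direct comparison of the agents 28 of 33 were lower with Pre-miR-223, with a median of -0.08, beside 62.8% and -0.04 for all genes. Ticam2, the adaptor that joins Ticam1 to its receptor, differed by -0.53 (-0.99 to -0.07). Without Anti-miR-223 replicate 4 the count of lower genes was 17 of 33, beside 52.2% of all genes, and Ticam2 differed by -0.30 (-0.66 to 0.05).

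Of 26 further NF-kB target genes 21 were tested. With Pre-miR-223 14 of the 21 were lower, with a median of -0.04, beside 65.2% and -0.05 for all genes tested. Gadd45b, a stress-response gene, had the smallest p, at -0.31 (-0.72 to 0.09). With Anti-miR-223 15 of 21 were lower, with a median of -0.05, beside 52.5% and -0.01 for all genes. Without replicate 4 the count was 15 of 21, with a median of -0.06, beside 63.6% and -0.05. Cd83, a surface marker of activation, and the transcription factor gene Irf1 each differed by -0.16, or by -0.14 and -0.19 without replicate 4. In the direct comparison 10 of 21 were lower with Pre-miR-223, with a median of 0.03, beside 62.8% and -0.04 for all genes. Without Anti-miR-223 replicate 4 these were 9 of 21 and 0.01, beside 52.2% and -0.01. None of these genes was called in any comparison. With Pre-miR-223 the named target and feedback genes had a median of -0.23 and this longer list of targets -0.04, nearer to the -0.05 of all genes tested, and the difference between the lists was not tested.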

How the data were processed

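Values of 12 arrays in 41345 transcript clusters were used as the authors deposited them, in log2 units. Per the submitters' processing notes, RMA, Partek and Affymetrix Expression Console were used; versions, genome build and the log base are not given in the sources used here, and base 2 was taken from RMA and the value range of 0.53 to 12.4. RMA usually equalises array distributions, but the deposited array medians ran from 2.21 to 2.31. Platform annotation gave 1 symbol to 23521 clusters, several to 1814 and none to 16010. The brightest single-symbol cluster stood for a gene, and genes whose mean exceeded the 40th percentile of all clusters were tested. limma 3.58.1 in R 4.3.3 (lmFit, eBayes, 2-sided) fitted the 3 group means in 1 model with 9 residual degrees of freedom, with Benjamini-Hochberg adjustment over 14611 genes and a threshold of 0.05. The procedure was tested on simulated data. The number of arrays limits the precision. Nothing says that replicates came from separate cultures beyond the word biological, so the p-values may measure technical spread. Members and gene lists were chosen with earlier results of these data known. Members named with differences were Rela, Nfkbia, Ikbkb, Traf6, Tnf and Tnfaip3, in each comparison the 3 pathway parts and 3 target or feedback genes with the smallest p, and others chosen after their values were seen. Scaling, level filter, cluster choice, variance model, arrays in the fit, replicate block and leaving out each array were the alternatives.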

Additional observations from a re-analysis of the deposited data

Results flagged for a closer look

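Of 102 groups of 4 arrays examined, 3 for each of the 34 genes, 6 (5.88%) had an end array whose gap to its nearest neighbour took up more than 0.829 of the group's range, and chance alone gives about 1 in 20. Relb had 4.332 on Pre-miR-223 replicate 4, below the other arrays of its group, and 4.921 on Anti-miR-223 replicate 3, above the others. Bcl3 had 4.291 on Pre-miR-223 replicate 1, the lowest of its group. Map3k7 had 6.319 on Scramble replicate 2, the highest of its group. Tirap had 5.421 and Ptgs2 5.226 on Anti-miR-223 replicate 4, the highest of their group, and these 2 are on the array that stood apart from the rest.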

How the results depend on the processing

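The count of genes called stayed at 0 in each comparison under every alternative run. With 1 array left out, the median difference of the pathway parts ran from -0.17 to -0.07 for Pre-miR-223 against Scramble, from -0.11 to 0.03 for Anti-miR-223 against Scramble and from -0.14 to 0.03 for Pre-miR-223 against Anti-miR-223, and that of the target and feedback genes from -0.29 to -0.17, from -0.19 to -0.00213 and from -0.21 to -0.03. Among the members named with differences in a comparison, those whose sign changed are given next, and the cause was not tested. Members not named there are left out, although some changed sign too. For Pre-miR-223 against Scramble the count of lower members went from 28 to 21 after centring. For Pre-miR-223 against Scramble, Ikbkb was 0.0426, 0.0318 and 0.0627 and Traf6 0.0633, 0.0300 and 0.0664 after centring, quantile normalisation and cyclic loess. For Pre-miR-223 against Anti-miR-223 in the same order, Ikbkb was 0.0750, 0.0455 and 0.0721, Nfkbia 0.0156, 0.00236 and 0.0166, and Tnfaip3, after centring and loess, 0.0305 and 0.00945. With 1 array left out, differences ranged as follows. For Pre-miR-223 against Scramble, Ticam1 ran from -0.30 to -0.07, Myd88 from -0.22 to -0.10, Nfkbia from -0.21 to -0.07, Bcl3 from -0.20 to -0.06 and Birc3 from -0.21 to -0.04, with no change of sign, while Ikbkb ran from -0.0981 to 0.0331 and Traf6 from -0.165 to 0.0715. For Anti-miR-223 against Scramble, Ikbkb ran from -0.145 to 0.0476, Ikbkg from -0.327 to 0.0265, Il1rn from -0.18 to 0.17, Irak1 from -0.301 to 0.00859, Nfkbie from -0.261 to 0.0296, Ptgs2 from -0.22 to 0.34, Rela from -0.11 to 0.20 and Tirap from -0.0248 to 0.309. For Pre-miR-223 against Anti-miR-223, Ikbkb ran from -0.0846 to 0.108, Ikbkg from -0.0757 to 0.278, Nfkb2 from -0.0738 to 0.0847, Nfkbia from -0.128 to 0.00879 and Tnfaip3 from -0.108 to 0.0454. The labels do not say whether same-numbered cultures were prepared together. After removal of the group means the 12 same-numbered pairs correlated between -0.50 and 0.39, 4 of them above 0.1. A differently numbered pair, Scramble replicate 2 and Anti-miR-223 replicate 4, reached 0.52. Centring on 4 arrays ties the values of a group together, so these correlations do not settle whether the arrays were paired. With the replicate number as a block the calls stayed at 0. At an unadjusted p under 0.05 there was then 1 member, lower, in the first comparison and 0 in the others. Beside them, 2.98%, 1.12% and 1.96% of all genes were lower at that level, in the order of the comparisons.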
